A study of Caenorhabditis elegans with 20 samples.

Results

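Transcripts of the 6 vitellogenin genes, *vit-1* to *vit-6*, differ widely among control libraries of dauer larvae that should all be the same age and stage. The 15 control libraries of the series, of 20 libraries in all, were therefore split by their yolk sum, which is the summed normalized count of the 6 *vit* genes. A control library was placed in the high group at a yolk sum of 1000 or more and in the low group under 1000, giving 7 high and 8 low libraries. The other 5 libraries are the experimental condition and took no part in the split. The split was made on a measured value and not on a label, so differences between the groups are given below as a description, each with its fitted standard error and with no p-value.

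RNA was sequenced from whole animals arrested as dauers, the nonfeeding alternative larval stage of *Caenorhabditis elegans*. All animals carried *daf-2(e1370)*, which weakens the insulin-like receptor at high temperature, and *daf-16(ot853[daf-16::mNG::AID])*, which adds a fluorescent protein and an auxin-inducible degron to the endogenous FoxO transcription factor. The controls are neither component (strain OH14654 on solvent), the no TIR1 control (OH14654 on 5-Ph-IAA) and the no auxin control (strain OH17582 on solvent), with 5 biological replicates each. OH17582 also carries *otSi2*, in which the intestinal *ges-1* promoter drives the F-box protein TIR1(F79G), and the experimental condition is this strain on 5-Ph-IAA, the ligand that sends DAF-16 to degradation in the intestine. The ligand was given at 100 μM, the solvent was ethanol at 0.2%, animals were kept at 25°C for 3 days, and 1 replicate held about 24000 animals pooled from several plates. According to the methods, the few animals per plate that had not arrested were picked off by hand.

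Vitellogenins are large lipoproteins that carry yolk lipid. In *C. elegans* they are made in the intestine of the adult hermaphrodite, secreted into the body cavity and taken up by growing oocytes through the receptor RME-2. Their transcripts therefore mark the reproductive adult, and eggshell and adult cuticle genes are other transcripts of that stage. Dauers lack a functional vulva and mature oocytes, and their cuticle is built from other collagens. In bulk RNA of this kind, a few animals with many such transcripts and many animals with a few cannot be told apart.

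The yolk sum ran from 1.0, a single read of *vit-2*, to 14134.7 among the controls. With neither component the yolk sum in replicates 1 to 5 was 742.7, 2655.5, 193.6, 87.5 and 14134.7. In the no TIR1 control it was 1853.7, 1207.3, 18.7, 1689.6 and 3.8. In the no auxin control it was 869.6, 1358.2, 1.0, 203.5 and 8286.7. Each condition thus held libraries of both groups, with 2 high and 3 low for neither component, 3 high and 2 low for the no TIR1 control, and 2 high and 3 low for the no auxin control. Just inside the cutoff of 1000 were libraries at 1207.3 and 1358.2, and just outside were libraries at 869.6 and 742.7. By replicate number, all 3 controls of number 2 were high and all 3 of number 3 were low, while numbers 1 and 4 had 1 high library each and number 5 had 2. The 5 experimental libraries had yolk sums of 24052.7, 8616.8, 26548.2, 53264.1 and 52693.7. The lowest of these lay under the highest control. In the control with the most yolk transcripts they made up 0.147% of the normalized total.

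**Figure D1:**
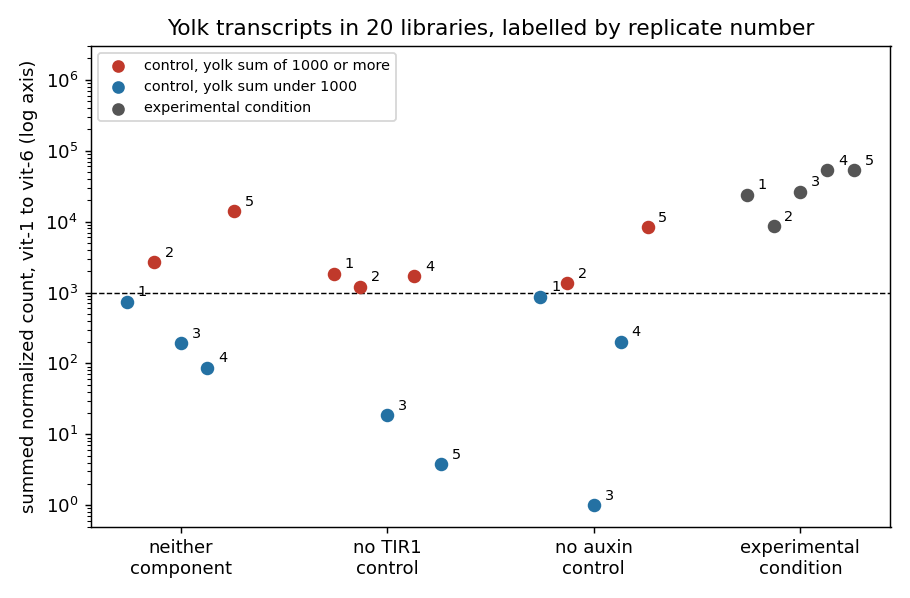
Summed normalized count of *vit-1* to *vit-6* (log axis) in 20 libraries by condition, 1 point per library with its replicate number and the cutoff of 1000 as a dashed line. Red points are the 7 high controls, blue points the 8 low controls and grey points the 5 experimental libraries. Every control condition spans the cutoff, and the highest control, at 14134.7, lies above the lowest experimental library, at 8616.8.

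The ranges of depth overlapped. The high libraries held 8303396 to 12680810 reads on genes (median 10267888) and the low libraries 6249223 to 12060282 (median 9112787.5). Ribosomal RNA genes took 4.04% to 6.56% of the normalized counts in the high group and 4.04% to 5.94% in the low group, and the mitochondrial genome took 2.4% to 3.3% and 2.5% to 3.05%. The transcript of the degron-tagged gene *daf-16* stood at 8230 to 8872 normalized counts in the high group and at 7968 to 9024 in the low group, a log2 difference of −0.00 (standard error 0.03). For *daf-2* the ranges were 4201 to 4907 and 4350 to 4666, a difference of 0.01 (standard error 0.03). Neither gene separates the groups.

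The shares of the 6 *vit* genes in the yolk sum varied little among the high controls and more among the low ones. In the 7 high controls, *vit-6*, on chromosome IV (8261157 to 8266459, WBcel235), gave 34.2% to 38.1% of the yolk sum. *vit-2*, on the X chromosome with the other 4 genes (5101042 to 5106169), gave 30.0% to 35.0%. *vit-1* gave 9.6% to 15.2%, *vit-5* 10.7% to 13.2%, *vit-4* 3.3% to 4.7% and *vit-3* 2.6% to 4.3%. In the 5 experimental libraries, which the split did not use, the median shares were 34.1% for *vit-6*, 33.6% for *vit-2*, 11.5% for *vit-1*, 14.2% for *vit-5*, 3.6% for *vit-4* and 3.1% for *vit-3*. The order of the genes was nearly the same in both, except that *vit-5* exceeded *vit-1* in the median of the experimental libraries and not in that of the high controls. *vit-6* took a smaller median share in the experimental libraries and *vit-5* a larger one, and these 2 differences were not tested. Per kilobase of exon, the median normalized count in the high group was 136 for *vit-6*, 123 for *vit-2*, 46.2 for *vit-1*, 40.6 for *vit-5*, 17.8 for *vit-4* and lowest for *vit-3*. Some of the *vit* genes resemble each other closely (*vit-3*, *vit-4* and *vit-5* above all), and how reads that fit several copies were counted is not stated, so the split among such copies is uncertain.

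**Figure D2:**
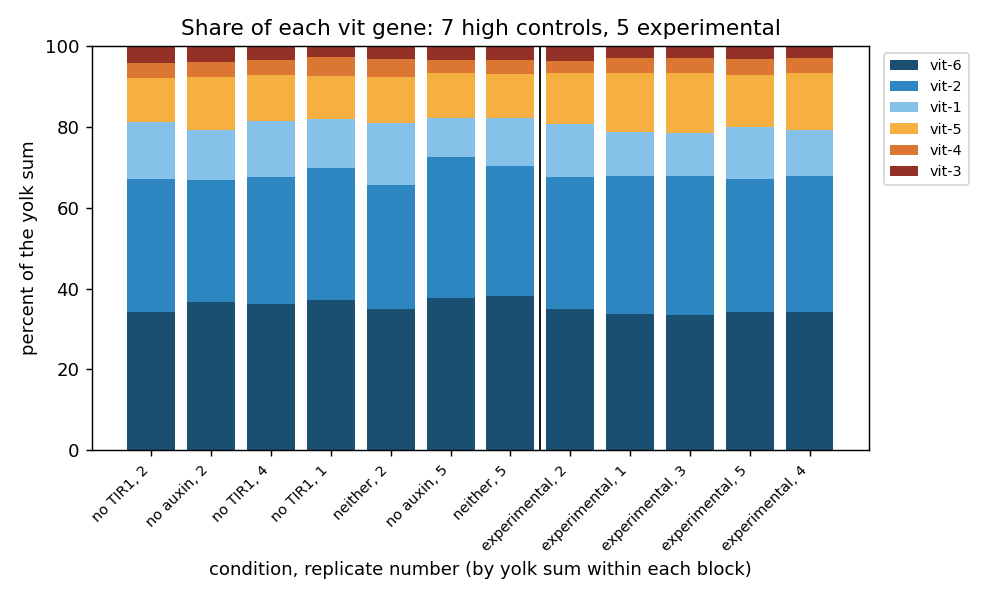
Percent of the yolk sum from each *vit* gene in the 7 high controls (left of the line) and the 5 experimental libraries (right), each ordered by yolk sum. *vit-6* and *vit-2* together make up most of every bar, with *vit-6* between 33.4% and 38.1%.

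In the low group, 4 libraries held at least 100 yolk reads. Replicate 1 of neither component (665 yolk reads) had a *vit-2* share of 25.7% (95% exact binomial interval 22.4% to 29.2%), below the 30.0% to 35.0% of the high controls. Replicate 1 of the no auxin control (929 reads) had 29.5% (26.6% to 32.5%), with an interval that reached into that range. In replicate 3 of neither component (123 reads) the *vit-2* share was 47.2% (38.1% to 56.4%), and in replicate 4 of the no auxin control (160 reads) it was 53.1% (45.1% to 61.0%), both above the range of the high controls. In that last library *vit-1* gave 4.4% (1.8% to 8.8%), *vit-5* 1.9% (0.4% to 5.4%) and *vit-4* 0.0% (0.0% to 2.3%), all below the range of the high controls. In replicate 3 of neither component *vit-4* was also below it, at 0.0% (0.0% to 3.0%). The intervals cover counting error only. *vit-4* was at 0 in 6 of the 8 libraries and *vit-3* in 3. *vit-2* was at 0 in 1 of them. In the library at 3.8, the only *vit* reads were 2 of *vit-3* and 2 of *vit-5*.

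Outside the *vit* genes, few genes differed between the 2 groups at the cutoff of 1000. Of 16963 other genes whose normalized counts averaged 2 or more, 0 (0%) were both 2-fold apart and without overlap between the groups, in either direction. The median difference over these genes was −0.001 on the log2 scale and 49.7% of them were positive. Only 2 genes (0.0118%) had groups that did not overlap at all, and both differences were small. *unc-61*, which encodes a septin, stood at 346 to 376 in the high group and 279 to 344 in the low group (log2 difference 0.16, standard error 0.05). *ZK686.2* stood at 317 to 338 and 339 to 370 (−0.09, standard error 0.04). The count of 0 depends on where the cutoff sits. At a cutoff of 2000, which leaves 3 high libraries, more genes were 2-fold apart without overlap, as given in the closing section on processing.

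Without the demand for separation, a small set of genes was higher in the high group. In a linear fit of log2(normalized count + 1) on yolk group with condition as a covariate, 99 genes (0.584%) were at least 2-fold higher in the high group and 27 (0.159%) at least 2-fold lower. The lower genes were all sparse, with mean counts between 2.01 and 6.68, and no lower gene had a mean count of 10 or more (0% of 12901 such genes). Of the higher genes, 24 had a mean count of at least 10 (0.186%). This mean is taken over all 15 controls. *perm-4*, *perm-2*, *ule-5*, *ule-4*, *col-143*, *col-119*, *col-8*, *D1086.10*, *col-133* and *wrt-2* reached it only through the high group. Their low-group means ran from 1.99 (*perm-2*) to 9.56 (*col-119*), so their place among the 24 is partly built in by the filter. The others of the 24 averaged at least 10 in both groups. Of these 24, 17 encode cuticle collagens of the *col* family, 2 are eggshell genes, 3 are *ule* genes, which are named for the uterine lumen, 1 is the hedgehog-related gene *wrt-2*, and 1 is *D1086.10*. Counted on the recovered reads, edgeR gave 179 higher and 76 lower, and DESeq2 201 and 103. A pseudocount of 0.5 gave 195 and 88, and one of 5 gave 29 and 0. Within the conditions taken singly, 93 of the 99 higher genes and 23 of the 24 were positive in all 3, the exception among the 24 being *col-133*. Of the 27 lower genes, 22 were negative in all 3. All these genes were chosen by a fit to the same libraries, so agreement in sign is partly built in and gives no separate support.

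The 2 controls with the most yolk were replicate 5 of neither component and replicate 5 of the no auxin control. Without both, a choice made after seeing the data, all 99 higher genes kept a positive difference but 50 of them reached 2-fold. All 24 with a mean count of at least 10 stayed positive and 18 reached 2-fold. Over all genes there were then 83 higher and 85 lower, and 20 higher and 7 lower among genes with a mean count of at least 10. The count of 99 became 160 without replicate 2 of the no auxin control. The count of 27 became 50 without replicate 5 of neither component, 49 without replicate 5 of the no auxin control, and 41 and 42 without replicates 3 and 5 of the no TIR1 control.

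**Figure D3:**
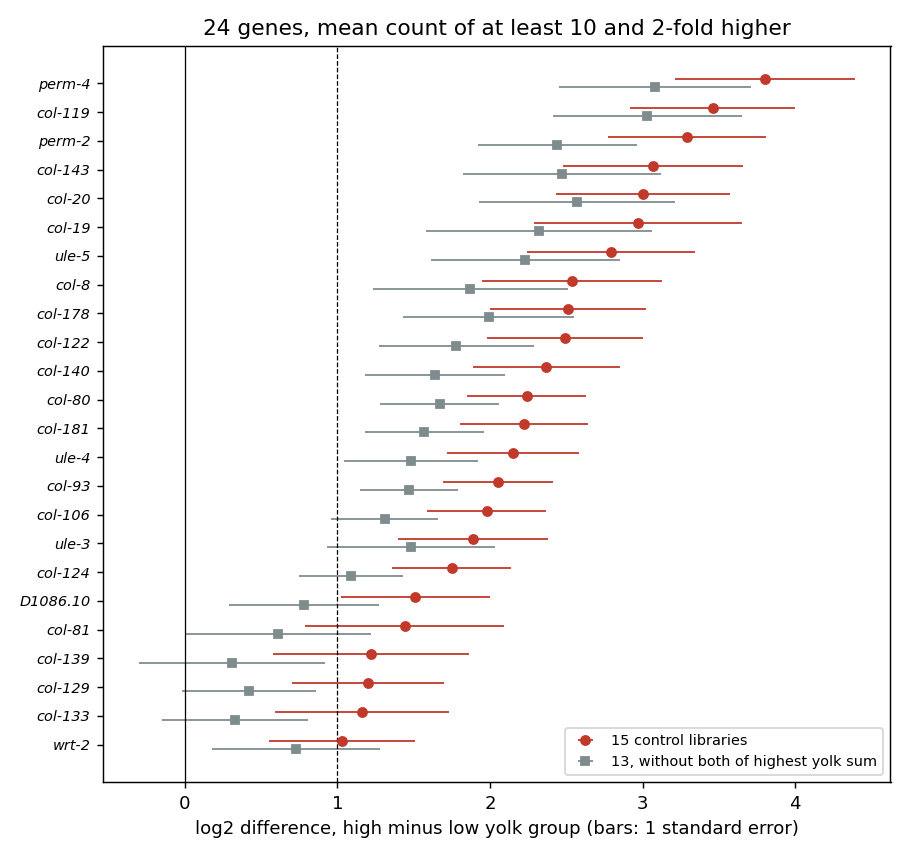
Log2 difference between high and low yolk groups (points, bars of 1 standard error) for the 24 genes with a mean count of at least 10 that were 2-fold higher, in all 15 controls (red circles) and without the 2 controls of highest yolk sum (grey squares). All 24 stay above 0, and 18 stay at or above the dashed line at 2-fold. *perm-4* leads both series, at 3.80 and 3.08.

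Among these 24 genes, the largest fitted difference was that of an eggshell gene, *perm-4*, followed by the collagen gene *col-119* and by a further eggshell gene, *perm-2*. Without the 2 controls of highest yolk sum, *perm-4* was still first, while *perm-2* (2.44) came after *col-119* (3.03), *col-20* (2.57) and *col-143* (2.47). *perm-4* (WBGene00016638, chromosome IV from 1121494 to 1125107, minus strand) and *perm-2* (WBGene00016636, chromosome IV from 1126790 to 1128865, plus strand) lie close together and are both needed for the permeability barrier of the embryo. The normalized count of *perm-4* was 13.3 to 171 in the high group (median 20.1) and 0 to 17.9 in the low group (median 1.27), with 4 of 8 low libraries at 0 and no high library at 0. Only replicate 1 of neither component, at 17.9 and with a yolk sum of 742.7, reached into the range of the high group. The fitted difference of *perm-4* was 3.80 (standard error 0.59), and it was 3.61, 4.03 and 3.74 within neither component, the no TIR1 control and the no auxin control.

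*perm-2* stood at 1.51 to 125 in the high group (median 13.5) and 0 to 5.58 in the low group (median 1.14). Of the high libraries, 6 of 7 lay above every low library, and the exception was replicate 1 of the no TIR1 control, at 1.51. The fitted difference of *perm-2* was 3.29 (standard error 0.52).

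The ratio of *perm-4* to yolk was similar in the libraries with many yolk counts and scattered in the others. Per 1000 yolk counts, the high controls held 7.35 to 12.7 counts of *perm-4* (median 11.2) and the experimental libraries 10.5 to 12.4 (median 11.2), although yolk sums in these 12 libraries ran from 1207.3 to 53264.1. For *perm-2* the ratio was 0.817 to 10.3 in the high controls (median 8.82) and 6.22 to 7.67 in the experimental libraries (median 7.42). The low controls with any read of *perm-4* had ratios of 24.1 (16 reads), 40.7 (5 reads), 12.5 (2 reads) and 8.61 (8 reads). In the 4 controls of lowest yolk sum, 87.5 or less, *perm-4* was at 0.

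The other eggshell genes differed in the same direction by less. All 13 members of the list of eggshell and egg activation genes, *perm-2* and *perm-4* included, were positive, against 49.7% of all genes, with a median difference of 0.33 against −0.001. Without the 2 libraries of highest yolk sum, 12 were positive with a median of 0.20. *cpg-3*, which encodes a chondroitin proteoglycan, stood at 33.3 to 80.8 in the high group and 25.2 to 48.0 in the low group (difference 0.71, standard error 0.17). *cpg-2*, another proteoglycan of the eggshell, stood at 391 to 742 and 335 to 487 (0.44, standard error 0.10). *cbd-1*, which encodes a chitin-binding protein of the vitelline layer, stood at 635 to 1157 and 564 to 711 (0.39, standard error 0.09). These 3 genes overlapped between the groups, and none was near 0 in any low library. The kinase gene *mbk-2*, used at the transition from oocyte to embryo, differed by 0.04 (standard error 0.04).

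Oocyte genes showed the same tilt. Of 16 listed, 15 were positive with a median of 0.21, and without the 2 libraries of highest yolk sum 14 were positive with a median of 0.11. Only *nos-2*, which encodes a maternal Nanos-type RNA-binding protein, was 2-fold higher, at 0.757 to 17.3 in the high group and 0 to 5.58 in the low group (difference 1.44, standard error 0.46). *egg-1*, an oocyte surface protein of the LDL receptor type needed for sperm entry, stood at 35.3 to 105 and 18.3 to 52.5 (0.76, standard error 0.20). The yolk receptor gene *rme-2* stood at 136 to 292 in the high group (median 158) and 111 to 155 in the low group (median 135), a difference of 0.54 (standard error 0.13). *puf-5* and *oma-1*, RNA-binding proteins of the growing and maturing oocyte, differed by 0.30 (standard error 0.10) and 0.28 (standard error 0.08). The maternal P granule gene *meg-1*, which is in no list and was named after its values were seen, stood at 1.77 to 43.87 and 0 to 6.30 (2.52, standard error 0.46).

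Germline genes listed outside the oocyte, eggshell and sperm lists barely differed. The list of germline proliferation, meiosis and P granule genes had 15 of 18 positive, but with a median of 0.03 and no difference over 0.12. The helicase gene *glh-1*, a constant P granule component, stood at 2214 to 2462 in the high group and 2150 to 2490 in the low group (0.02, standard error 0.03). *gld-1*, a translational regulator of meiotic germ cells, differed by 0.09 (standard error 0.04). Of 18 DNA replication and cell cycle genes, 13 were positive with a median of 0.02.

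Sperm transcripts were few in both groups. Of 31 listed sperm genes 12 were measured and 8 were positive (against 49.7% of all genes). The 3 that were 2-fold higher (against 0.584% of all genes) were sparse, like most 2-fold genes. These 3 passed the minimum mean of 2 only through the high group, with means there of 4.19 (*gsp-3*), 4.01 (*gsp-4*) and 3.83 (*msp-36*). In the low group their means were 0.85, 0.834 and 1.24, so their share of the list is partly built in by the filter. Without the 2 libraries of highest yolk sum 10 of the list were positive and 0 were at 2-fold. *gsp-3*, a phosphatase of sperm, stood at 0.797 to 13.7 in the high group and 0 to 4.72 in the low group (1.45, standard error 0.52). Its near copy *gsp-4* differed by 1.18 (standard error 0.53) and the major sperm protein gene *msp-36* by 1.13 (standard error 0.47). The summed count of the sperm list had a median of 149 in the high group and 138 in the low group. Of 5 genes of the male tail and seminal fluid, 1 was measured, the sensory channel gene *pkd-2*, at 1.14 to 3.19 and 0 to 5.62.

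Cuticle collagens formed the largest group. Collagens of the *col* family are secreted by the hypodermis, and each larval stage and the adult deposits its own set. Of 135 *col* genes tested, 19 were at least 2-fold higher (14.07% against 0.584% of all genes) and 0 were 2-fold lower, while 86 were positive and the median difference was 0.14. *col-19*, the classical marker of the adult cuticle, stood at 18.1 to 312 in the high group (median 47.8) and 0 to 47.2 in the low group (median 21.9), a difference of 2.97 (standard error 0.68). *col-119* stood at 10.5 to 189 (median 32.6) and 0 to 20.5 (median 9.69), a difference of 3.46 (standard error 0.54). *col-20* stood at 16.2 to 294 (median 51.4) and 0 to 51.4 (median 25.4), a difference of 3.00 (standard error 0.57). *col-143* stood at 14.3 to 156 (median 34.8) and 0 to 27.1 (median 3.58), a difference of 3.07 (standard error 0.59). Other collagens among the 12 largest differences of genes with a mean count of at least 10 were *col-8*, *col-178*, *col-122*, *col-140* and *col-80*, between 2.24 and 2.54. Of these 9 collagens, *col-119* had 6 of 7 high libraries above all low ones, and the others had 3 to 5. Collagen genes are short and similar in sequence, and reads could be shared between them.

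The ratio of collagen to yolk counts was also uneven. Per 1000 yolk counts, *col-20* ranged from 11.9 to 54.9 over the high controls, a span of 4.61-fold, *col-119* from 7.71 to 33.3 (4.32-fold) and *col-143* from 8.48 to 18.8 (2.22-fold), while the span was 1.73-fold for *perm-4* and, from 0.817 to 10.3, wider than any of these for *perm-2*. The summed count of the 17 collagens was 310 to 4529 in the high group (median 717) and 91.3 to 833 in the low group (median 478). Replicate 2 of the no auxin control, with a yolk sum of 1358.2, had a collagen sum of 310, while replicate 3 of neither component, with a yolk sum of 193.6, had 833. The 3 controls of highest yolk sum had collagen sums of 2142, 4349 and 4529, above all other controls, and the 3 of lowest had 91.3, 105 and 210, below all others. In the experimental libraries the collagen sums were 3210 to 10138. The other 7 of the 24 genes together stood at 70.0 to 643 in the high group and 5.77 to 89.4 in the low group.

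**Figure D4:**
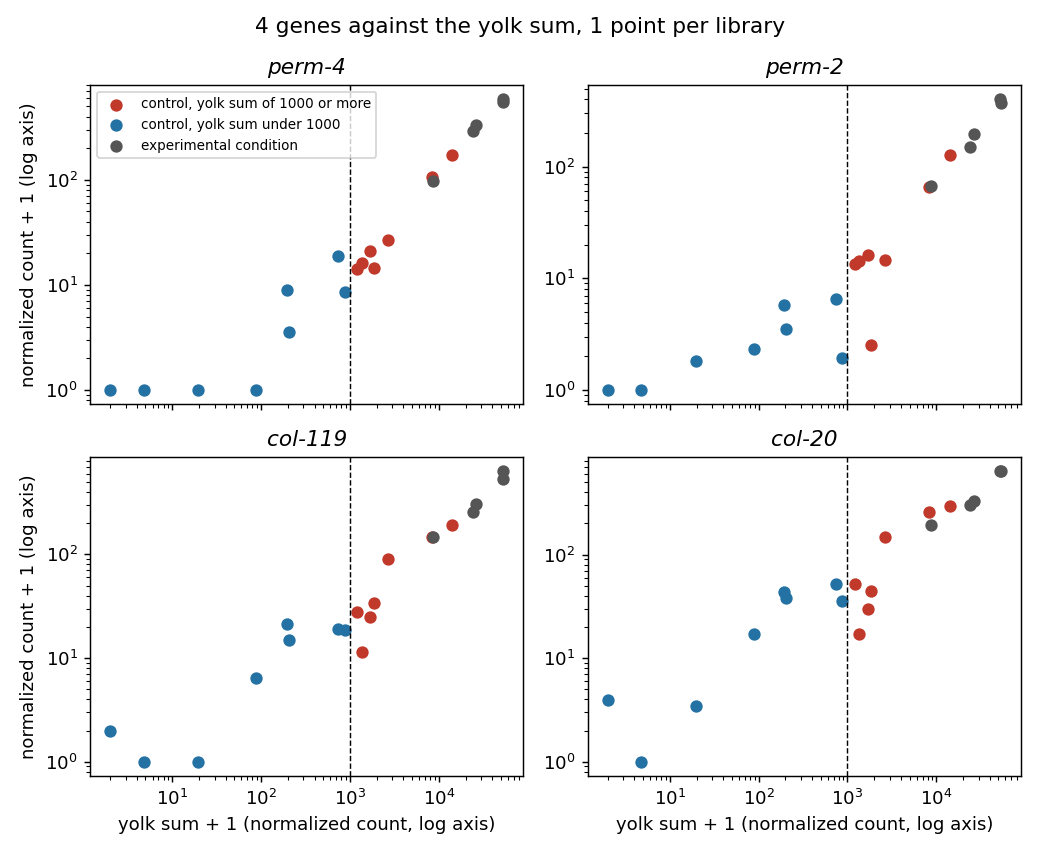
Normalized count + 1 against yolk sum + 1 for *perm-4*, *perm-2*, *col-119* and *col-20* (both axes log), 1 point per library, with the cutoff as a dashed line. Low (blue) and high (red) controls are split by the yolk sum itself and overlap along the vertical axis, as do the high controls and the experimental libraries (grey). For *perm-2*, 1 high control lies low, at 1.51.

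*wrt-2* and *D1086.10*, also among the 24, differed by 1.03 (standard error 0.48) and 1.51 (standard error 0.49). *ule-5* stood at 4.54 to 54.3 in the high group (median 11.4) and 0 to 8.94 in the low group (median 1.22), a difference of 2.79 (standard error 0.55), and *ule-4* and *ule-3* differed by 2.15 (standard error 0.43) and 1.89 (standard error 0.49). Outside the 24, the strut collagen genes of the adult cuticle *bli-1* and *bli-2* had sparse counts, and both groups reached 0 for each. *bli-1* differed by 1.10 (standard error 0.68), and *bli-2* ranged from 0 to 26.55 in the high group and 0 to 8.65 in the low group. Within the no TIR1 control the differences were −0.98 for *bli-1* and −1.18 for *bli-2*, opposite to those in neither component (2.96 and 2.10) and the no auxin control (1.33 and 2.08). The fourth adult cuticle gene listed, *col-7*, was too sparse to be measured, and without the 2 libraries of highest yolk sum 2 of the 3 measured members were positive with a median of 0.25. The chitinase-family gene *cht-3*, named after its values were seen, stood at 2.66 to 25.18 in the high group and 0 to 3.74 in the low group (2.58, standard error 0.40).

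Among genes that control or serve yolk production, 0 of 15 regulators and 0 of 12 uptake genes were 2-fold apart, which with 0.584% of all genes higher and 0.159% lower does not set them apart. Of 15 regulators of the *vit* genes 5 were positive, with a median of −0.01 and none beyond 0.22 in either direction. The homeobox gene *ceh-60*, an activator of *vit* transcription, stood at 13.7 to 26.6 in the high group and 10.6 to 22.1 in the low group (0.14, standard error 0.20). *mab-3*, which represses yolk genes in males, had medians of 52.58 and 54.04 (difference 0.13, standard error 0.15). *elt-7*, a GATA factor of the gut, stood at 46.9 to 79.7 and 54.3 to 96.0 (−0.22, standard error 0.12). Of 12 genes for yolk uptake and lipoprotein transfer 6 were positive with a median of 0.00. The exceptions were the oocyte genes *rme-2* and *cav-1*, a caveolin gene at 0.96 (standard error 0.39). *dsc-4*, the microsomal triglyceride transfer protein used to load lipoproteins, differed by −0.05 (standard error 0.04), and the clathrin gene *chc-1* by −0.03 (standard error 0.03).

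Genes of the intestine, where yolk is made, differed little. Of 14 intestinal genes 8 were positive with a median of 0.01, and their summed count was 15318 to 17801 in the high group and 15942 to 17566 in the low group. *ges-1*, the gut esterase, differed by 0.13 (standard error 0.06), and the cathepsin gene *cpr-6* by −0.06 (standard error 0.03). Fatty acid synthesis and desaturation genes had a median of −0.05 with 5 of 14 positive, and *fat-7*, a stearoyl-CoA desaturase, was the exception at 0.89 (standard error 0.42), from 0.955 to 5.31 counts against 0 to 3.35. Intracellular lipid binding genes had a median of −0.03 with 7 of 16 positive.

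Markers of the dauer state overlapped between the groups. Of 10 dauer genes 3 were positive with a median of −0.04. *lea-1*, a desiccation protein of dauers, stood at 8355 to 12598 in the high group and 9319 to 10515 in the low group (0.05, standard error 0.06). *icl-1*, the glyoxylate cycle enzyme, stood at 33995 to 43976 and 32674 to 49536 (−0.07, standard error 0.08). The dauer collagen genes *col-2* and *col-40* differed by −0.22 (standard error 0.25) and −0.19 (standard error 0.23), with broad overlap. For the molting cycle list the median was 0.03 with 10 of 12 positive, and for hypodermis 0.17 with 9 of 12 positive, the latter becoming −0.07 and 4 of 12 without the 2 libraries of highest yolk sum. Neurons (median −0.03, 3 of 12 positive), body wall muscle (0.02, 7 of 11), pharynx (−0.00, 5 of 10) and somatic gonad and vulva (−0.02, 5 of 12) were centred near 0. Of 10 early embryo genes 3 were measured, *elt-1*, *hlh-1* and *med-2*, and 2 were positive with a median of 0.05.

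**Figure D5:**
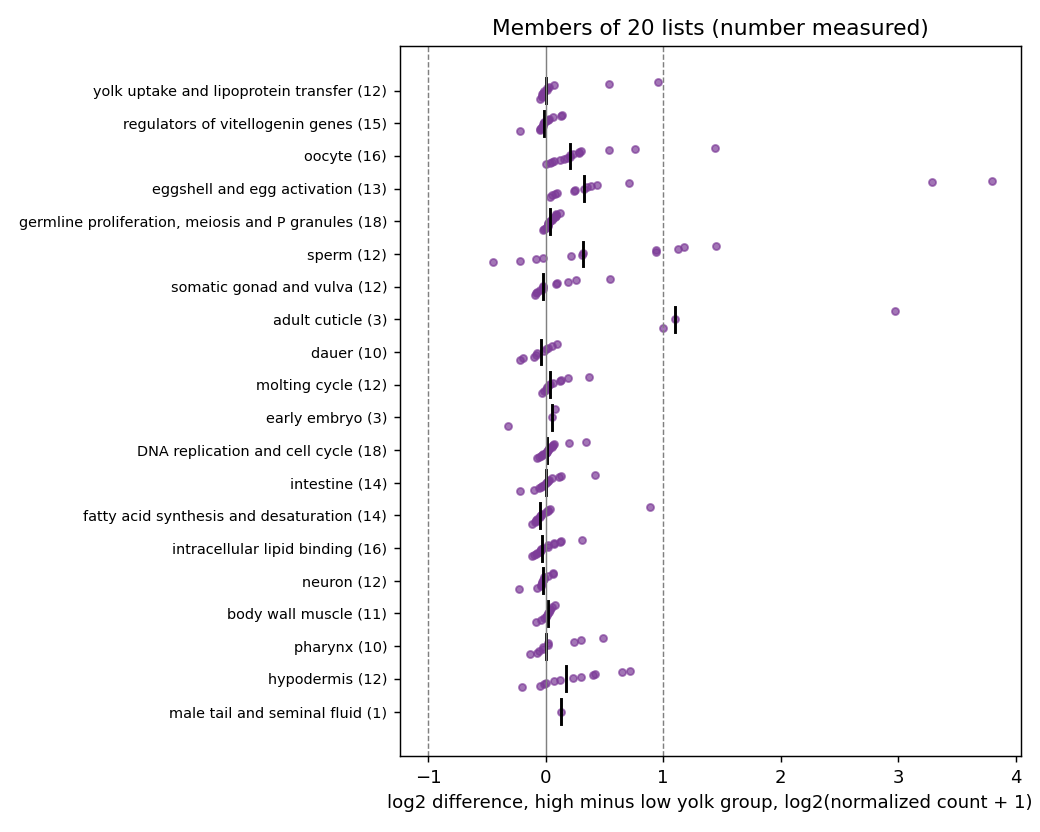
Log2 difference between high and low yolk groups for each measured member of 20 lists (points), with the median of each list (black bar) and dashed lines at 2-fold. Only the oocyte, eggshell, sperm and adult cuticle lists have points beyond 2-fold, with medians of 0.21, 0.33, 0.32 and 1.10.

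The experimental condition allowed a labelled comparison for the same genes, though only its own 5 libraries took no part in the split. Each of its 2 single-component controls was compared with it by limma over all 20 libraries, with a call at a Benjamini-Hochberg adjusted p-value under 0.05 and 1.5-fold. Both comparisons share the 5 experimental libraries. The control libraries in them were also used to choose the genes, so the counts are not independent of the split. The 6 *vit* genes were themselves higher in the experimental libraries. Their log2 changes were 6.01 to 7.12 against the no TIR1 control and 5.77 to 6.63 against the no auxin control. A rise of genes chosen for going with the yolk sum therefore gives no separate support. Of the 99 higher genes 96 were tested, 74 rose relative to the no TIR1 control and 68 relative to the no auxin control, and 0 fell in either. Over all genes tested, 6.75% rose and 2.39% fell against the no TIR1 control, and 6.58% rose and 2.27% fell against the no auxin control. Of the 24 genes with a mean count of at least 10, 23 rose against each control, the exception in both being *wrt-2*, at 1.22 (standard error 0.59) and 1.31 (standard error 0.59). The median log2 change of the 24 was 4.32 and 3.56, against −0.01 and −0.02 over all genes.

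*perm-4* was at 96.6 to 581 normalized counts in the experimental libraries, above all low controls but overlapping the high controls. On the log2 scale it rose by 5.87 relative to the no TIR1 control (standard error 1.14, limma adjusted p = 4.08e-04) and by 5.16 relative to the no auxin control (standard error 1.14, limma adjusted p = 0.00167). *col-19* was at 172 to 626, a change of 4.72 (standard error 1.05, limma adjusted p = 0.00159) and 4.10 (standard error 1.05, limma adjusted p = 0.00598). *ule-5* was at 25.7 to 186, a change of 4.33 (standard error 0.93, limma adjusted p = 0.00117) and 4.08 (standard error 0.93, limma adjusted p = 0.00222). By list, 10 of 13 eggshell genes rose relative to the no TIR1 control and 8 relative to the no auxin control, as did 11 and 10 of 16 oocyte genes, 7 and 4 of 12 sperm genes, and all 3 measured adult cuticle genes. Over all genes, 6.75% and 6.58% were called higher and 2.39% and 2.27% lower. The germline proliferation list had 0 of 18 called in either comparison, which beside these shares does not set it apart.

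Of the 27 lower genes, 24 were tested, and limma called 0 lower in either comparison. Over all genes tested, 2.39% and 2.27% were called lower, so counts of 0 or 1 among 24 do not set these genes apart. At an unadjusted p under 0.05, limma found 1 lower and 1 higher in each, *nuo-3* and WBGene00019934 against the no TIR1 control and *C06H5.11* and *ZK1307.2* against the no auxin control, named here after their values were seen. edgeR and DESeq2 called 0 lower against the no TIR1 control and 1 lower, *C06H5.11*, against the no auxin control. Leaving out 1 library changed the count of 0 to 1 against the no TIR1 control without its replicate 4, and to 1 against the no auxin control without its replicate 2 or without replicate 5 of the experimental condition.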

How the data were processed

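RNA-seq of whole dauers was analysed in 20 libraries, 5 for each of 4 conditions. The authors trimmed reads with Trimmomatic, aligned them with STAR to the WS284 release of the genome, assigned them to genes with featureCounts and normalized with DESeq2 on the Galaxy platform. The strand setting and the treatment of reads with several matches are not given in the sources used here, so genes that overlap another gene or resemble a close copy are uncertain. The deposited values are a signal, in which the authors divided the counts of each library by its size factor. Whole reads were recovered for 100% of values (tolerance 0.01, largest deviation 0.000377) by dividing each column by its value of 1 read, which lay between 0.612 and 2.91. Replicates differed beyond counting noise (chi-square over its degrees of freedom at least 3), so no library was taken as a repeat of another. All columns were used, and 0 were left out. Standard errors cover the spread between the libraries, while the binomial intervals cover only counting error within a library. Depth is given as reads on genes.

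The yolk sum was cut at 1000. Differences came from a linear fit of log2(normalized count + 1) on yolk group and condition in limma 3.58.1 (R 4.3.3), with a moderated standard error, for genes with a mean of at least 2 over the 15 controls. The pseudocount understates the change of sparse genes. No test was made of the yolk groups, since libraries were grouped by a measured value. The labelled comparisons used limma with a mean-variance trend over 20 libraries and 17090 genes with a mean of at least 2. The count tests edgeR 4.0.16 and DESeq2 1.42.0 were run on the recovered reads as alternatives, because the deposited values are normalized. The fits were run on simulated counts with the same dispersion for every gene and independent libraries, which these data need not follow. For the yolk groups, 179 of 200 changed genes were recovered at 2-fold, and 27 unchanged genes also reached it. With a mean of at least 10, 141 of 142 were recovered and 0 unchanged genes reached it. Tables and plots were made with Python 3.11.15, pandas 2.3.3, numpy 2.4.6 and matplotlib 3.10.9, and positions come from the WBcel235 annotation (Ensembl release 115), which held 46921 of the 46925 gene identifiers.

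The members, the 20 gene lists besides the *vit* genes and the tests were chosen with earlier results of these data known. The rule for named genes took the 12 largest differences in each direction among genes with a name of the *abc-1* form and a mean of at least 10, and in each list up to 6 members that differed by 2-fold or else the 2 of highest count. It also asked for groups without overlap, and as no gene met this, it was applied without that demand, and the remaining genes of the 24 and most other list members were named after their values were seen. The alternatives tried were a pseudocount of 0.5 or 5, filters at a mean of 10 or none, quantile normalization, equal totals, edgeR, DESeq2, a replicate block, no condition term, cutoffs of 500 and 2000, the yolk sum as a number, fits within each condition, other fold cutoffs, a fit of the compared conditions alone, the yolk sum as a covariate, and each library left out in turn. Leaving out both controls of highest yolk sum was added after the data were seen.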

Additional observations from a re-analysis of the deposited data

Results flagged for a closer look

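In groups of 5 libraries, the highest or lowest library was compared with the rest by Dixon's gap ratio, for 104 combinations of a measure and a condition, and 32 stood apart. Chance flags about 1 in 20 groups, but nothing can be read from this number here, since the yolk sum and the *vit* genes defined the groups, the leading genes were chosen for going with them, and the measures move together. Apart from 1, all of them are replicate 5 of neither component or of the no auxin control standing above the other 4 libraries of its condition. In replicate 5 of neither component this holds for the yolk sum of 14135, for *vit-1* at 1701, *vit-2* at 4546, *vit-3* at 500, *vit-4* at 469, *vit-5* at 1534 and *vit-6* at 5385, for *perm-4* at 171, *perm-2* at 125, *col-143* at 156 and *col-140* at 391, and for the summed eggshell and egg activation genes at 8855 normalized counts.

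In replicate 5 of the no auxin control it holds for the yolk sum of 8287, for *vit-1* at 792, *vit-2* at 2901, *vit-3* at 288, *vit-4* at 275, *vit-5* at 915 and *vit-6* at 3116, and for *perm-4* at 105 and *perm-2* at 64.1. It also holds there for *col-119* at 145, *col-20* at 256, *col-19* at 250, *col-8* at 95.0, *col-178* at 164, *col-122* at 422, *col-140* at 369 and *col-80* at 258, for the summed eggshell and egg activation genes at 8358 and for the summed adult cuticle genes at 270. The third control with replicate number 5, in the no TIR1 control, had a yolk sum of 3.8. The remaining flag is replicate 5 of the experimental condition, with 20.8% of its normalized counts on ribosomal RNA genes. No explanation of these libraries was tested.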

How the results depend on the processing

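The number of higher and lower genes depends on how sparse genes are treated. In place of 99 higher and 27 lower there were 195 and 88 with a pseudocount of 0.5, 29 and 0 with one of 5, 24 and 0 at a minimum mean of 10, 166 and 46 with no filter, 179 and 76 with edgeR, 201 and 103 with DESeq2, and 438 and 312 at 1.5-fold. A cutoff of 2000, which leaves 3 high libraries, gave 355 and 155, the yolk sum as a number gave 63 and 0, and leaving out both libraries of highest yolk sum gave 83 and 85. Within neither component, the no TIR1 control and the no auxin control taken singly, there were 531, 306 and 371 higher and 275, 226 and 419 lower. Leaving out each library in turn gave 92 to 160 higher and 22 to 50 lower.

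In place of 0 genes without overlap, there were 2 higher with no filter, 1 higher and 1 lower at a cutoff of 500, 90 and 10 at 2000, 1 lower with equal totals and 1 lower without both libraries of highest yolk sum. Within the 3 conditions, in the order above, there were 347, 213 and 200 higher and 176, 166 and 266 lower without overlap, in groups of 2 and 3 libraries. Leaving out each library in turn gave 0 to 4 higher and 0 to 1 lower.

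Of the 99 higher genes, those called higher against the no TIR1 control and the no auxin control became 44 and 44 at a minimum mean of 10, where fewer genes are tested, and 20 and 8 with the yolk sum as a covariate, which says nothing about these genes because they were chosen by that sum. Leaving out each library gave 72 to 75 and 60 to 72. Of the 27 lower genes, 1 was called lower against the no auxin control with edgeR and 1 with DESeq2, and each comparison gave 0 to 1 when libraries were left out in turn.

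In the labels, libraries of the same replicate number share only that number. The deviations of same-numbered libraries correlated over 0.1 in 14 of 25 pairs (−0.066 to 0.436). A library matched its own number best in 14 of 25, with 5 numbers to choose from. All 3 controls of number 2 were high and all 3 of number 3 were low, so number and yolk group are partly tied. The main fit had no term for the replicate number. With a replicate block there were 215 higher and 120 lower genes. All 12 leading genes kept a difference of at least 1 in all 384 alternative values. Of 2010 alternative values of the named genes, 1968 moved by less than the residual spread, 39 moved further and 3 reversed a difference of at least 1, namely *bli-1* (−0.98) and *col-133* (−0.41) within the no TIR1 control and *col-133* (−0.00) at a cutoff of 500. The cause of these changes was not tested. Counts under 10 limit what can be seen in the low group.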
